A study of Homo sapiens with 12 samples.

Results

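The interferon-stimulated genes described here are 34 genes named by symbol, among them the ISG15, IFIT, OAS, MX, SAMD9 and IRF genes. They were found by matching the versioned Ensembl identifiers of the deposited quantifications to symbols with the version removed. All 34 were found among 60708 genes, and 29 of the 34 passed the filter on low counts that left 15388 genes for testing. The libraries came from hTERT RPE-1, human retinal pigment epithelial cells that telomerase has immortalised. There were 4 stable clonal lines of it. The mCherry_3 and mCherry_4 clones carried an overexpression construct for the red fluorescent protein mCherry and were the controls, while the LmnB1_6 and LmnB1_16 clones overexpressed mCherry-LmnB1, a fusion with lamin B1, which forms filaments under the inner nuclear membrane. All 4 clones received 0.05 ug/mL doxycycline for 24 hours and were grown with hygromycin B. Each clone gave 3 libraries, described as biological replicates. Each construct is therefore represented by 2 clones, and the 3 libraries of a clone share whatever is particular to that line. The promoter of the constructs is not named in the labels, and no culture treated with interferon or without doxycycline was analysed here.

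Type I and type III interferons bind cell surface receptors, and the JAK1 and TYK2 kinases then phosphorylate STAT proteins. STAT2 and IRF9 are subunits of the complex ISGF3, which binds the interferon-stimulated response element in the promoters of its targets. The targets sense viral RNA, block its translation, degrade it or mark proteins with the ubiquitin-like ISG15. STAT2, IRF9 and IRF7 are both targets and transcription factors of the pathway, and many of the genes have a low level in cells that were not exposed to interferon.

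Promoters are shown because a core of the response element is the feature that members share by sequence, and because it stood in some of the members that differed between clones and not in others. RefSeq promoters (GRCh38.p14, from 250 bases before the gene start to 50 from it on) matched 28 of the 34 members. IFIT2, IRF7, OAS2, OASL, USP18 and MX2 had no entry. The core searched was GAAANNGAAA on either strand, and matches may overlap. It stood in 18 of the 28 member promoters (64.3%) and in 3.57% of 35116 RefSeq promoters, and 12 members held at least 2 matches. The core of the gamma-activated site, TTCNNNGAA on either strand, stood in 7 of the 28 (25.0%) and in 7.66% of all promoters. Member promoters had a median GC content of 53.2%, against 58.7% in all promoters, and a median of 10 CpG sites, against 14. In the 5 promoters below, written 5′ to 3′ on the strand of the gene, capitals mark matches to the response element core. The first pair, ISG15 (chr1:1013247-1013546, plus strand) and HERC5 (chr4:88456869-88457168, plus strand), belongs to genes that were lower in the LmnB1 libraries. BST2 (chr19:17405581-17405880, minus strand), OAS1 (chr12:112906712-112907011, plus strand) and SAMD9L (chr7:93148336-93148635, minus strand) were among the genes that differed most between clones. The windows follow RefSeq gene starts, and that of ISG15 lies within the longer span that GENCODE gives the gene.
ISG15: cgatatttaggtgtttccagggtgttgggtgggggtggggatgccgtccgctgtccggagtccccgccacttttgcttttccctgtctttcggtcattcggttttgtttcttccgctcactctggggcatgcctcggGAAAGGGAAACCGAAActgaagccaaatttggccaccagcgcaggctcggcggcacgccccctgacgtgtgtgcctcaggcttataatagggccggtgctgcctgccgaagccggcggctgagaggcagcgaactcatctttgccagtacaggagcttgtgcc
HERC5: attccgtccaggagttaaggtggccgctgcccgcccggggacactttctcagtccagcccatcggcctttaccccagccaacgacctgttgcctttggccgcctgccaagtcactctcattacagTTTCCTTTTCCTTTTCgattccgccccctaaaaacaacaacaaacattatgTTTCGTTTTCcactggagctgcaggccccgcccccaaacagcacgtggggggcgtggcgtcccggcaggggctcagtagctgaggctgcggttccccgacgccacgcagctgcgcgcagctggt
BST2: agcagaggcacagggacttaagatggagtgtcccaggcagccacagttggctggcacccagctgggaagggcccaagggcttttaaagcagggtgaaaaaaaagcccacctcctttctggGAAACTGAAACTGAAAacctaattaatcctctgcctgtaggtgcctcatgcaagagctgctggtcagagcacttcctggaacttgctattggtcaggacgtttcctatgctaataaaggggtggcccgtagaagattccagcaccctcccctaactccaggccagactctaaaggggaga
OAS1: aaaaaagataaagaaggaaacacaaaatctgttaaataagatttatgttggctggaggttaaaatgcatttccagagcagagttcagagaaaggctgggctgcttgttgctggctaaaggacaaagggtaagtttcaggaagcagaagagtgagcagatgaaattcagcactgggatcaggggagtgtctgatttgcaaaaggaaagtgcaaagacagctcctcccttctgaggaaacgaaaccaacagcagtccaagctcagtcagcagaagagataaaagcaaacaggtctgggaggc
SAMD9L: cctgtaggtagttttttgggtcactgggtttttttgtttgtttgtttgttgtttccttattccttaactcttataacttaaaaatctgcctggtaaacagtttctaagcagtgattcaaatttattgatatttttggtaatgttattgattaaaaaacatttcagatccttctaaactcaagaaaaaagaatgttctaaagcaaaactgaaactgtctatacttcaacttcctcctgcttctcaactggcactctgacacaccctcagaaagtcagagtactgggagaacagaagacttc

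With the start base as position 0, the ISG15 promoter held a pair of overlapping cores from -113 to -98, and the HERC5 promoter held 3 on the opposite strand from -125 to -65. BST2 had a pair of overlapping cores from -130 to -115. The windows of OAS1 and SAMD9L held no match to these letters, and that of OAS1 held 1 gamma-activated site core at -168. The OAS1 window does hold GAAACGAAA, repeats of GAAA with a shorter spacing, which the search did not count.  A match describes the sequence and is not evidence of a bound factor.

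**Figure D1:**
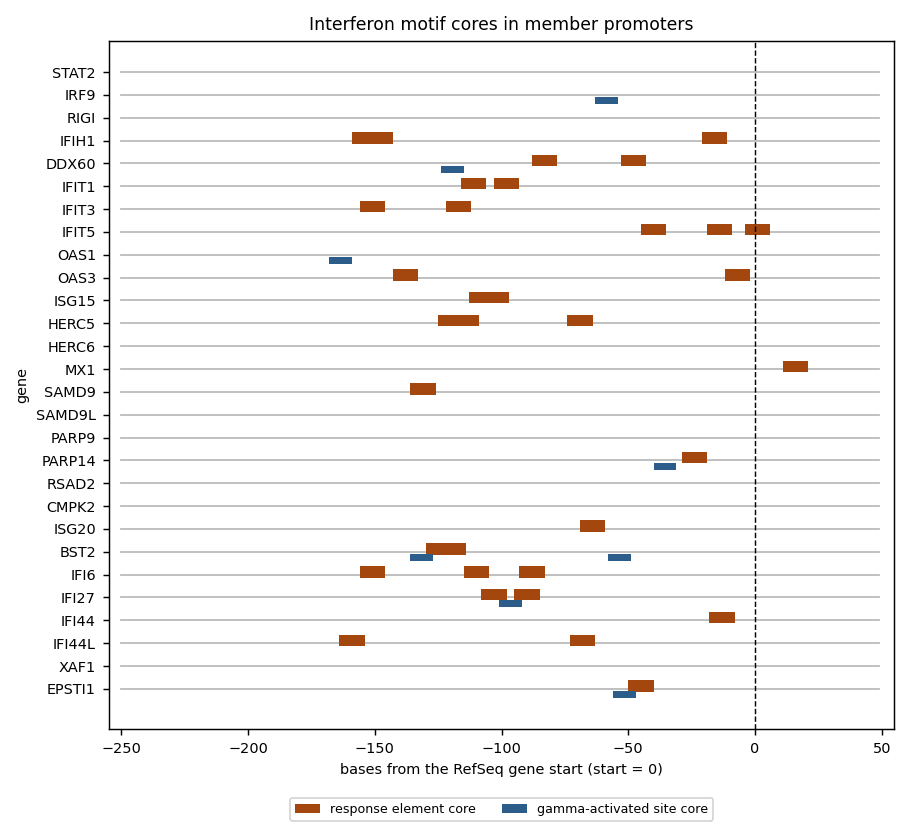
Matches to the response element core and to the gamma-activated site core in the 28 member promoters with a RefSeq entry, by distance in bases from the gene start (dashed line). Response element cores stand in 18 of the 28 promoters, between -164 and 20. STAT2, RIGI, OAS1, HERC6, SAMD9L and PARP9 are among the genes without a match at the spacing searched.

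The libraries held 20.6 to 29.5 M estimated counts, with 14146 to 14906 genes at 10 counts or more. Mitochondrial transcripts took 2.06% to 2.69% of the counts. Libraries of a clone differed by more than sampling noise in each pair (chi-square per degree of freedom 3.73 to 16.3), so none was counted as a repeat of another. LMNB1, which the construct carries, matched the labels at 84.98 ± 7.12 CPM in mCherry_3, 161 ± 7.29 in mCherry_4, then 3976 ± 164 in LmnB1_6 and 3374 ± 273 in LmnB1_16 (CPM are counts made comparable between libraries by TMM scaling, here and throughout as mean ± SD over n = 3 libraries of a clone). Of 10 pigment epithelium markers, RPE65, TTR and TYR had 0 counts in all 12 libraries. The summed level of the 10 was 75.0 to 87.0 CPM in the libraries of mCherry_3, 60.8 to 67.1 in mCherry_4, 46.3 to 53.2 in LmnB1_16 and 2.58 to 3.28 in LmnB1_6, where OTX2 had 0 counts and MITF stood at 0.0590 ± 0.0686 CPM. The 4 simple epithelium markers summed to 1154 to 1289 CPM in mCherry_3, 849 to 926 in mCherry_4, 588 to 635 in LmnB1_6 and 787 to 829 in LmnB1_16. The 6 leukocyte markers summed to 1.10 to 6.61 CPM over the 12 libraries with CD3E at 0, and of 4 plasmacytoid dendritic cell markers CLEC4C and LILRA4, which define that cell, were at 0. The 4 summed to 30.8 to 35.6 CPM in mCherry_3, 37.7 to 40.5 in mCherry_4, 42.0 to 51.0 in LmnB1_16 and 45.4 to 53.8 in LmnB1_6, nearly all of it TCF4, a factor that many other cell types express too, which rose by 0.41 ± 0.09 (SE) on the log2 scale between the constructs (edgeR adjusted p = 0.00950). Its part in the results below was not tested. The 4 endothelium markers summed to 14.2 to 16.5 CPM in mCherry_3 and to 3.84 to 8.26 in the other clones.

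The members were expressed at low to moderate levels, and mCherry_3 held the highest level of most of them. The median tested member had 4.68 TPM (abundance scaled by effective length, as the authors deposited it), against 13.7 TPM for all tested genes. Of the 34 genes, 9 had a mean above 10 TPM, 16 lay between 1 and 10, and 9 were at or below 1. ISG15 at 69.9 TPM, the endoplasmic reticulum and mitochondrial protein IFI6 at 52.5 TPM and STAT2 at 27.0 TPM were the most abundant. The summed level of the 34 was 452 ± 13.2 TPM in mCherry_3, 278 ± 22.6 in mCherry_4, against 251 ± 22.2 in LmnB1_6 and 287 ± 17.9 in LmnB1_16. The mCherry_3 clone thus stood apart from the other control and from both LmnB1 clones. It held the highest mean of 20 of the 29 tested members and the lowest of 0, whereas it was highest for 31.4% and lowest for 32.1% of all tested genes. LmnB1_6 held the lowest mean of 17 members and the highest of 0, against 30.8% and 30.4% of all tested genes. The heat map shows both patterns, and in bulk RNA fewer cells that express a gene and less RNA per cell cannot be told apart.

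Between the constructs, 4 of the 29 tested members fell and 0 rose in the 6 LmnB1 libraries against the 6 mCherry libraries (edgeR quasi-likelihood test, called where the Benjamini-Hochberg p over all 15388 genes was under 0.05). The share that fell was 13.8%, against 9.25% of all tested genes that fell and 8.58% that rose. At an unadjusted p under 0.05, 8 members were lower and 1 was higher, and DESeq2 called 6 lower and 0 higher. The median log2 fold change of the members was -0.34, against 0.00218 for all tested genes, and 21 of 29 members were below 0. The genes that fell were ISG15, its ligase HERC5, its protease USP18, and PARP9. For ISG15, HERC5 and PARP9 the 6 LmnB1 libraries all lay below the 6 mCherry libraries, 3 members against 4.85% of all tested genes, and 0 members lay wholly above, against 3.8%. With counts summed per clone (2 clones against 2, edgeR), 0 members were called and 1 had an unadjusted p under 0.05, and with clone as a random effect in limma 0 were called and 6 had an unadjusted p under 0.05. None of ISG15, HERC5, USP18 and PARP9 was called without mCherry_3. Leaving out a clone gave 1 of 27 members called without mCherry_3 and 12 without mCherry_4. It gave 5 (3 higher and 2 lower) without LmnB1_6 and 12 without LmnB1_16. The count was 2 without replicate 1 or replicate 3 of mCherry_3 or without replicate 1 of LmnB1_6, and 7 without replicate 2 of mCherry_4. The shares of all tested genes called in these alternative fits are not given here. The counts therefore show how the calls depend on clones and libraries, and are not a result about the members.

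ISG15 encodes the ubiquitin-like modifier that interferon induces (chromosome 1, 1001138 to 1014540, plus strand, GRCh38, GENCODE 29). Its level was 21.8, 27.1 and 24.1 CPM in the mCherry_3 libraries, 18.5, 17.7 and 18.4 in mCherry_4, 16.7, 15.7 and 15.5 in LmnB1_6 and 13.1, 11.4 and 12.2 in LmnB1_16. The lowest mCherry library stood at 17.7 and the highest LmnB1 library at 16.7. The log2 fold change of LmnB1 against mCherry was -0.59 ± 0.13 (SE; edgeR adjusted p = 0.0117), and without mCherry_3 it was -0.36 with an edgeR adjusted p of 0.149. Against the mean of the mCherry clones, a contrast with equal weight for each control clone, ISG15 was lower in LmnB1_6 (log2 fold change -0.40, edgeR adjusted p = 0.000726) and in LmnB1_16 (-0.78, edgeR adjusted p = 3.07e-06). The difference between the LmnB1 clones was itself called, with LmnB1_16 lower by a log2 fold change of -0.39 (edgeR adjusted p = 0.00502).

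HERC5, the main ligase that joins ISG15 to new proteins (chromosome 4, 88457117 to 88506163, plus strand), measured 7.68, 6.77 and 8.84 CPM in mCherry_3, 5.46, 4.97 and 3.86 in mCherry_4, 1.67, 2.21 and 2.75 in LmnB1_6 and 3.75, 3.64 and 3.33 in LmnB1_16. The constructs were separated by a narrow gap, between 3.86 in an mCherry_4 library and 3.75 in an LmnB1_16 library. The log2 fold change was -1.12 ± 0.24 (SE; edgeR adjusted p = 0.0109). It was -0.72 without mCherry_3 (edgeR adjusted p = 0.159) and -0.81 without LmnB1_6 (edgeR adjusted p = 0.0744). HERC6, a HERC5 paralog on the same chromosome, did not pass the construct test (-0.48 ± 0.26 SE, edgeR adjusted p = 0.216) and had 24.7 ± 1.14 CPM in mCherry_3, 13.5 ± 1.46 in mCherry_4, then 9.58 ± 1.60 in LmnB1_6 and 17.9 ± 2.42 in LmnB1_16.

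USP18 encodes the protease that removes ISG15 and also damps signalling from the type I interferon receptor (chromosome 22, 18149899 to 18177397, plus strand). It stood at 3.46, 3.80 and 4.74 CPM in mCherry_3, 2.48, 2.09 and 3.18 in mCherry_4, 1.67, 1.32 and 1.17 in LmnB1_6 and 2.48, 2.41 and 2.20 in LmnB1_16. The mCherry_4 and LmnB1_16 libraries overlapped, and the LmnB1_6 libraries were the lowest. Its log2 fold change between constructs was -0.81 ± 0.25 (SE, edgeR adjusted p = 0.0407). It lost the call without any 1 of the 3 mCherry_3 or the 3 LmnB1_6 libraries or without replicate 3 of mCherry_4 (edgeR adjusted p from 0.0567 to 0.0996). Against mCherry_4 alone USP18 was lower in LmnB1_6 (-0.90, edgeR adjusted p = 0.00605) and did not pass in LmnB1_16 (-0.13, edgeR adjusted p = 0.768). PARP9, an ADP-ribosyltransferase family protein that works with the ubiquitin ligase DTX3L (chromosome 3, 122527924 to 122564577, minus strand), had 28.0, 25.8 and 29.8 CPM in mCherry_3, 25.0, 24.5 and 23.3 in mCherry_4, 20.7, 22.6 and 22.1 in LmnB1_6 and 21.3, 23.0 and 21.3 in LmnB1_16. The change was small, with a log2 fold change of -0.26 ± 0.07 (SE, edgeR adjusted p = 0.0226). It was not called without replicate 1 or 3 of mCherry_3 or replicate 1 of LmnB1_6 (edgeR adjusted p from 0.0537 to 0.0545). Against mCherry_4 alone PARP9 did not pass in LmnB1_6 (-0.16, edgeR adjusted p = 0.138) or in LmnB1_16 (-0.15, edgeR adjusted p = 0.228). PARP9 overlaps DTX3L on the opposite strand (mean 46.3 CPM), and whether counting used strand is not stated, so reads of this pair may be exchanged. PARP14, which lies near PARP9 on chromosome 3, did not pass the construct test (0.14 ± 0.21 SE, edgeR adjusted p = 0.660).

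More members were called between clones that carry the same construct, 23 for mCherry and 21 for LmnB1, in a fit with the clones as groups and a smaller spread (biological coefficient of variation 0.0842, against 0.262 in the construct fit). In mCherry_4 against mCherry_3, 20 of 29 members were lower and 3 (IFI44L, RIGI and SAMD9) were higher, against 17.4% and 19.9% of all tested genes, and the median member was at -0.60 on the log2 scale. In LmnB1_16 against LmnB1_6, 16 members were higher and 5 (EPSTI1, IFI6, IRF7, ISG15 and SAMD9) were lower, against 17.8% and 16.6% of all tested genes, with a median of 0.52. LmnB1_6 against the mean of the mCherry clones gave 17 lower and 0 higher, against 24.6% and 24.4% of all tested genes; 0 members were higher at an unadjusted p under 0.05 and 0 with DESeq2. LmnB1_16 against the mean of the mCherry clones gave 7 higher (DDX60, IFI44, IFI44L, IFIT2, IFIT3, OAS3 and PARP14) and 6 lower (HERC5, IFI6, IRF7, ISG15, PARP9 and SAMD9), against 17.2% and 16.5%. The median member was at -0.32 in LmnB1_6 and at -0.04 in LmnB1_16. These p-values measure the spread between libraries of a clone. In LmnB1_6, where the pigment epithelium markers summed to at most 3.28 CPM, their part in the lower members was not tested.

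Set against each control clone alone, the LmnB1 clones gave different counts. LmnB1_6 had 20 members lower and 1 (SAMD9) higher than mCherry_3, against 26.8% and 26% of all tested genes. Against mCherry_4 it had 11 lower and 4 (IFI6, IFIT1, OAS2 and PARP14) higher, against 20.1% and 17.1%. LmnB1_16 had 15 lower and 4 (DDX60, IFI44L, IFIT3 and OAS3) higher than mCherry_3, against 22% and 22.5%. Against mCherry_4 it had 3 lower (IRF7, ISG15 and SAMD9) and 10 higher, against 9% and 6.67%. The median member was at -0.61 for LmnB1_6 against mCherry_3, -0.19 against mCherry_4, -0.35 for LmnB1_16 against mCherry_3 and 0.23 against mCherry_4. The contrasts share libraries and are set side by side without a test between them. For LmnB1_16 the median was thus below 0 against mCherry_3 and above 0 against mCherry_4.

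**Figure D2:**
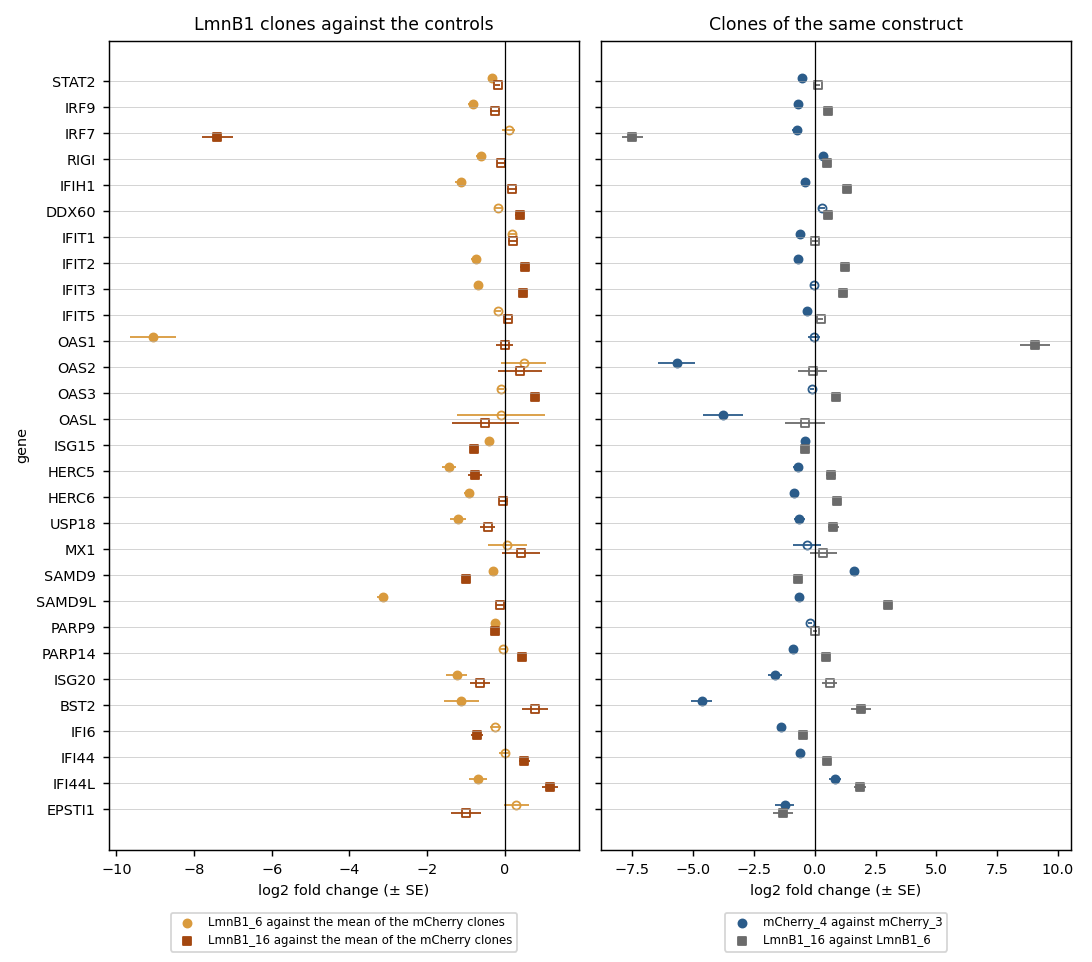
Log2 fold change ± SE of the 29 tested members, for each LmnB1 clone against the mean of the mCherry clones (left) and between clones of the same construct (right), with filled symbols for an edgeR adjusted p under 0.05. On the left OAS1 and SAMD9L stand far below 0 in LmnB1_6 and IRF7 in LmnB1_16, and on the right most members lie below 0 for mCherry_4 against mCherry_3.

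Among the transcription factors, STAT2, a subunit of ISGF3 (chromosome 12, 56341597 to 56360155, minus strand), had 96.0, 80.5 and 81.0 CPM in mCherry_3, 64.2, 54.2 and 60.2 in mCherry_4, 57.0, 58.1 and 56.7 in LmnB1_6 and 61.1, 68.2 and 59.9 in LmnB1_16. The mCherry_3 libraries stood above the rest, the mCherry_4 libraries overlapped with those of both LmnB1 clones, and the LmnB1_16 libraries lay above those of LmnB1_6, a difference that was not called (0.14 ± 0.08 SE, edgeR adjusted p = 0.210). The log2 fold change of mCherry_4 against mCherry_3 was -0.53 ± 0.08 (SE; edgeR adjusted p = 7.1e-05), while that between constructs was -0.27 ± 0.12 (SE; edgeR adjusted p = 0.138). IRF9, which gives ISGF3 its DNA contact, followed the same order of controls, with 22.7 ± 0.877 CPM in mCherry_3, 14.1 ± 2.38 in mCherry_4, against 10.1 ± 2.02 in LmnB1_6 and 14.9 ± 2.28 in LmnB1_16. A readthrough gene on the same strand overlaps IRF9 at 3.36 CPM.

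IRF7, the factor that amplifies interferon production (chromosome 11, 612553 to 615999, minus strand), was near 0 in 1 clone. It measured 6.09, 8.06 and 8.29 CPM in mCherry_3, 4.74, 3.92 and 4.96 in mCherry_4 and 6.08, 6.72 and 5.97 in LmnB1_6, but 0, 0.0983 and 0 in LmnB1_16. The 3 LmnB1_16 libraries held 2 counts in all, against 457 in LmnB1_6. The ratio of LmnB1_6 to LmnB1_16 was 212, with an exact 95% interval of 58.3 to 1755 that covers counting error only. The neighbouring gene PHRF1, 331 bases away, had 90.7 CPM in mCherry_3, 94.6 in mCherry_4, then 95.2 in LmnB1_6 and 87.6 in LmnB1_16, and did not pass the test in LmnB1_16 against the mean of the mCherry clones (log2 fold change -0.08, edgeR adjusted p = 0.326). Of the 12 tested genes within 150 kb of IRF7, 5 (EPS8L2, LRRC56, RASSF7, LMNTD2 and TMEM80) were lower in that contrast. Their log2 fold changes ran from -1.81 for LRRC56 to -0.35 for TMEM80. Of the others, 1 (TALDO1) was higher and 6 were not called. Of all tested genes, 16.5% were lower and 17.2% higher there. EPS8L2 was lower and TALDO1 higher also in LmnB1_6 against the mean of the mCherry clones and in mCherry_4 against mCherry_3. The neighbours of IRF7, and those of OAS1 and SAMD9L, were chosen after their values were seen.

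IFIH1, RIGI, DDX60 and 2 of the 4 IFIT genes differed between the LmnB1 clones. IFIH1 (MDA5), a cytosolic sensor of long double-stranded RNA, had 8.96 ± 0.857 CPM in mCherry_3, 6.72 ± 0.743 in mCherry_4, against 3.54 ± 0.401 in LmnB1_6 and 8.83 ± 1.37 in LmnB1_16. Its log2 fold change was -1.13 in LmnB1_6 against the mean of the mCherry clones (edgeR adjusted p = 4.15e-06) and 0.19 in LmnB1_16 (edgeR adjusted p = 0.278). RIGI (RIG-I), the sensor of RNA with a triphosphate end, stood at 16.3 ± 1.76, 20.9 ± 1.84, 12 ± 2.5 and 17.4 ± 2.04 CPM in mCherry_3, mCherry_4, LmnB1_6 and LmnB1_16, and was likewise lower in LmnB1_6 (-0.61, edgeR adjusted p = 0.000554). DDX60, a helicase with antiviral activity, was higher in LmnB1_16 (0.38, edgeR adjusted p = 0.0141) and did not pass in LmnB1_6 (-0.17, edgeR adjusted p = 0.232). Against mCherry_4 alone DDX60 did not pass in LmnB1_16 (0.23, edgeR adjusted p = 0.268).

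The IFIT proteins bind viral RNA and hinder its translation. IFIT3 had 27.7 ± 3.29 CPM in mCherry_3, 26.8 ± 1.68 in mCherry_4, then 17.0 ± 1.12 in LmnB1_6 and 37.7 ± 3.09 in LmnB1_16. It was thus lower in LmnB1_6 (log2 fold change -0.68, edgeR adjusted p = 6.42e-06) and higher in LmnB1_16 (0.47, edgeR adjusted p = 0.000279) than in the same controls, and the construct contrast was 0.00 ± 0.23 (SE; edgeR adjusted p = 0.992). IFIT2 was called in the same directions, though not in LmnB1_16 against mCherry_3 alone (0.16, edgeR adjusted p = 0.391) or in LmnB1_6 against mCherry_4 alone (-0.40, edgeR adjusted p = 0.0576), with 4.60 ± 0.854 CPM in LmnB1_6 and 10.9 ± 0.416 in LmnB1_16, a difference of 1.25 ± 0.15 (SE) on the log2 scale (edgeR adjusted p = 5.91e-06). IFIT1 and IFIT5 were not called between the LmnB1 clones, at 0.02 ± 0.13 and 0.25 ± 0.10 (SE; edgeR adjusted p = 0.939 and 0.0610). IFIT1, IFIT2 and IFIT3 overlap LIPA on the opposite strand (84.2 CPM), so part of their reads may belong to it. The IFIT, OAS, HERC and SAMD9 genes have paralogs among the members, and how shared reads were divided between paralogs was not tested.

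The 4 OAS genes did not share 1 pattern over the clones, although OAS2 and OASL had their clone means in the same order. OAS1, OAS2 and OAS3 make the oligoadenylates that activate RNase L, whereas OASL lacks that activity. OAS1 (chromosome 12, 112906777 to 112933222, plus strand) measured 2.32, 3.08 and 2.89 CPM in mCherry_3, 2.71, 2.17 and 3.18 in mCherry_4 and 2.63, 2.21 and 3.26 in LmnB1_16, and 0 in the 3 LmnB1_6 libraries. With 3 counts over the LmnB1_6 libraries as the limit that 0 counts allow, mCherry_3 was at least 67.9-fold higher, mCherry_4 at least 65.8-fold and LmnB1_16 at least 67.6-fold, which covers counting error only. OAS3 lies 5130 bases from OAS1 on the same strand and stood at 52.9 ± 7.06, 49.3 ± 2.31, 47.7 ± 0.777 and 86.9 ± 6.51 CPM in mCherry_3, mCherry_4, LmnB1_6 and LmnB1_16. It did not pass in LmnB1_6 against the mean of the mCherry clones (log2 fold change -0.10, edgeR adjusted p = 0.304) and was higher in LmnB1_16 (0.77, edgeR adjusted p = 5.92e-07).

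OAS2 (chromosome 12, 112978395 to 113011723, plus strand) was highest in mCherry_3, with 1.48, 1.61 and 2.11 CPM there, 0, 0.0835 and 0 in mCherry_4, 0.514, 0.0981 and 0.369 in LmnB1_6 and 0.341, 0.442 and 0.183 in LmnB1_16. The mCherry_4 libraries held 2 counts in all, and the ratio of mCherry_3 to mCherry_4 was 60.5 (exact 95% interval 16.4 to 505). OASL (chromosome 12, 121019111 to 121039242, minus strand) had 0.913, 0.609 and 1.04 CPM in mCherry_3, 0, 0.0835 and 0.0847 in mCherry_4, 0, 0.196 and 0.403 in LmnB1_6 and 0.0973, 0.0983 and 0.256 in LmnB1_16. Both genes were highest in mCherry_3 without overlap, and both were at low counts in the other 9 libraries. Their construct contrasts did not pass (edgeR adjusted p = 0.303 for each).

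The neighbours SAMD9 and SAMD9L, which restrict poxviruses and cell growth, were ordered differently over the clones. SAMD9L (chromosome 7, 93130055 to 93148369, minus strand) had 29.8, 25.2 and 25.5 CPM in mCherry_3, 16.9, 15.9 and 18.9 in mCherry_4, 2.74, 1.72 and 2.68 in LmnB1_6 and 19.9, 19.0 and 19.8 in LmnB1_16. The LmnB1_6 libraries lay far below the other 9, with a log2 fold change of -3.15 ± 0.13 (SE) against the mean of the mCherry clones (edgeR adjusted p = 7.59e-12), while LmnB1_16 did not pass (-0.13, edgeR adjusted p = 0.337). SAMD9, 12032 bases away, had 15.3 ± 1.63 CPM in mCherry_3, 47.2 ± 2.17 in mCherry_4, against 21.6 ± 2.33 in LmnB1_6 and 13.4 ± 2.15 in LmnB1_16. Of the 3 members that were higher in mCherry_4 than in mCherry_3 it had the largest difference, a log2 fold change of 1.63 ± 0.11 (SE) against mCherry_3 (edgeR adjusted p = 1.6e-08). Both tested genes within 150 kb of SAMD9L, SAMD9 (-0.31, edgeR adjusted p = 0.0140) and VPS50 (-0.30, edgeR adjusted p = 0.0183), were lower in LmnB1_6 against the mean of the mCherry clones. In that contrast 24.6% of all tested genes were lower. Against single controls SAMD9 in LmnB1_6 was lower than in mCherry_4 (-1.13, edgeR adjusted p = 3.87e-07). It was higher than in mCherry_3 (0.50, edgeR adjusted p = 0.00136).

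**Figure D3:**
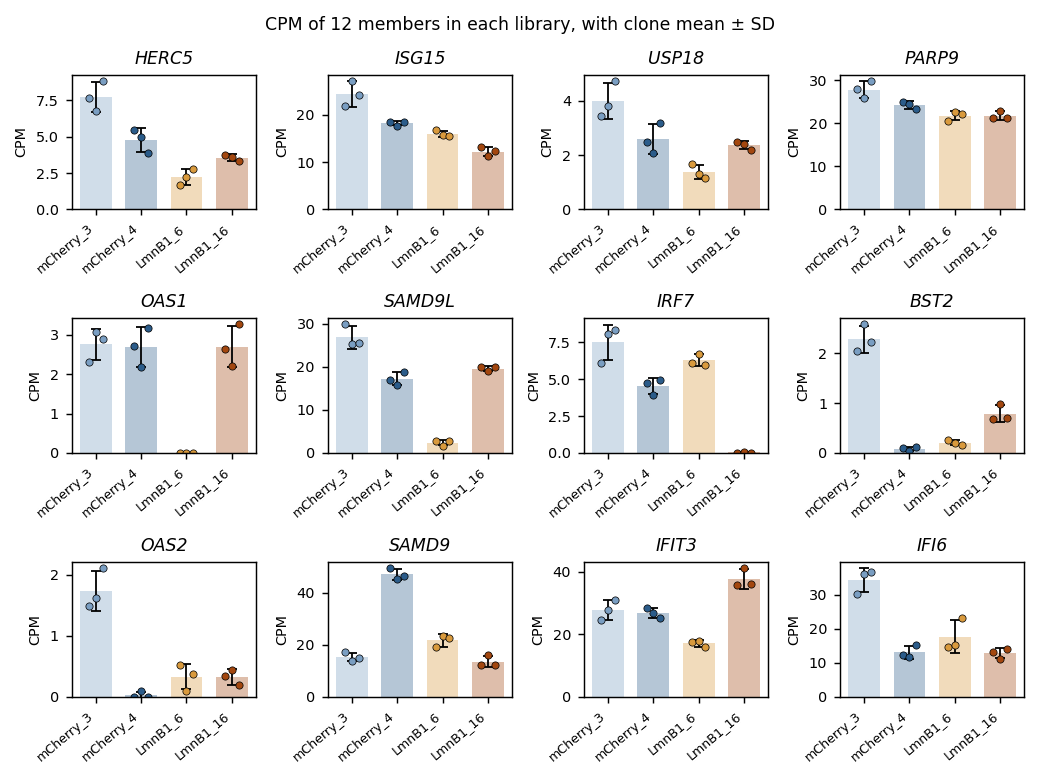
CPM of 12 members in each library (points), with bars for the mean and error bars for the SD of the 3 libraries of each clone, and a separate scale for each gene that starts at 0. The top row shows the 4 genes that fell in LmnB1 libraries, and the others show levels set by single clones, such as 0 for OAS1 in LmnB1_6, near 0 for IRF7 in LmnB1_16 and 47.2 for SAMD9 in mCherry_4.

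BST2 and IFI6 were the members with membrane roles that marked mCherry_3. BST2 (tetherin), which holds budding virions at the cell surface (chromosome 19, 17402939 to 17405648, minus strand), had 2.05, 2.58 and 2.22 CPM in mCherry_3, 0.0903, 0.0417 and 0.127 in mCherry_4, 0.257, 0.196 and 0.168 in LmnB1_6 and 0.681, 0.983 and 0.696 in LmnB1_16. The 4 clones did not overlap, and mCherry_4 was the lowest, with a log2 fold change of -4.65 ± 0.43 (SE) against mCherry_3 (edgeR adjusted p = 4.47e-07). IFI6 (chromosome 1, 27666061 to 27672218, minus strand) had 30.2, 36.1 and 36.7 CPM in mCherry_3, 12.1, 11.8 and 15.2 in mCherry_4, 14.5, 15.2 and 23.3 in LmnB1_6 and 13.1, 11.2 and 14.1 in LmnB1_16. The mCherry_3 libraries stood above all others, the mCherry_4 libraries overlapped with those of both LmnB1 clones, and the LmnB1_6 libraries lay above those of LmnB1_16. The endothelium markers, of which 1 of 4 could be tested, were likewise highest in mCherry_3, at a sum of 14.2 to 16.5 CPM against at most 8.26 elsewhere. So were 20 of the 29 tested members. Among the other clones BST2 had the order of the marker sums and IFI6, with its lowest mean in LmnB1_16, did not. The part of the markers in these genes was not tested.

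ISG20, an exonuclease that degrades single-stranded RNA (chromosome 15, 88636153 to 88656483, plus strand), measured 2.66, 4.12 and 3.33 CPM in mCherry_3, 1.31, 0.710 and 1.23 in mCherry_4, 0.813, 0.589 and 0.973 in LmnB1_6 and 1.31, 1.13 and 1.25 in LmnB1_16. The mCherry_3 libraries were again the highest, at a log2 fold change of mCherry_4 against mCherry_3 of -1.64 ± 0.28 (SE; edgeR adjusted p = 0.000273). The construct contrast was -1.14 ± 0.40 (SE; edgeR adjusted p = 0.0645). PARP14, a mono-ADP-ribosyltransferase, was at 62.4 ± 1.88 CPM in mCherry_3 and 61.9 ± 7.38 in LmnB1_16, and at 33.8 ± 3.45 in mCherry_4 and 44.5 ± 3.26 in LmnB1_6. The IFI44 pair, neighbours on chromosome 1, were higher in LmnB1_16 against the mean of the mCherry clones (IFI44 by 0.50, edgeR adjusted p = 0.00828, and IFI44L by 1.16, edgeR adjusted p = 0.000330, on the log2 scale), but against mCherry_3 alone IFI44 did not pass (0.21, edgeR adjusted p = 0.303). IFI44L had 1.47 ± 0.222, 2.64 ± 0.470, 1.20 ± 0.345 and 4.39 ± 0.911 CPM in mCherry_3, mCherry_4, LmnB1_6 and LmnB1_16. EPSTI1 stood at 1.18 ± 0.169 CPM in mCherry_3, 0.940 ± 0.297 in LmnB1_6, 0.498 ± 0.162 in mCherry_4 and 0.383 ± 0.101 in LmnB1_16, and LmnB1_6 did not pass against mCherry_4 (0.91, edgeR adjusted p = 0.0836). MX1, a GTPase that blocks influenza virus, was at 0.345 to 0.509 CPM in the clone means, and no contrast of it passed.

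The 5 members that did not pass the filter were at or near the limit of detection. MX2, the MX1 paralog, and CMPK2, a nucleotide kinase, had 0 counts in all 12 libraries, which allows up to 0.0103 CPM over the libraries together (3 counts). RSAD2 (viperin), which lies beside CMPK2 and overlaps it on the opposite strand, had 1 count, and XAF1 had an estimated 0.998. IFI27 had 79 counts over the 12 libraries and at most 0.487 CPM in any of them. MX2, CMPK2, RSAD2 and XAF1 were therefore not detectable at this depth or rested on a single count, while ISG15 had 5257 counts over the 12 libraries.

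By promoter sequence, 17 tested members had a match to the response element core GAAANNGAAA and 7 had an entry without one. Entries without a match may still hold repeats with another spacing, as those of OAS1 and RIGI do. In LmnB1_6 against the mean of the mCherry clones, 8 of the 17 and 7 of the 7 were lower, where 24.6% of all tested genes were. Against mCherry_4 alone, STAT2 (-0.06, edgeR adjusted p = 0.631) and PARP9 (-0.16, edgeR adjusted p = 0.138) of these 7 did not pass. Of the 8, BST2, ISG15 and ISG20 did not pass against mCherry_4 alone, nor IFI44L against mCherry_3 alone. SAMD9, also of the 8, was higher than in mCherry_3 alone (0.50, edgeR adjusted p = 0.00136). In LmnB1_16 against the mean of the mCherry clones, 6 of the 17 were higher and 4 lower, and of the 7 without a core 0 were higher and 1 was lower (17.2% and 16.5% of all tested genes). In mCherry_4 against mCherry_3, 11 of the 17 and 4 of the 7 were lower (17.4% of all tested genes). These counts describe the members, and the difference between promoters with and without the core was not tested.

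The ligands that start the pathway were nearly silent. Of 10 interferon ligand genes, IFNE was the 1 that could be tested, at 0.944 ± 0.200, 1.52 ± 0.575, 0.773 ± 0.340 and 1.36 ± 0.294 CPM in mCherry_3, mCherry_4, LmnB1_6 and LmnB1_16. It did not pass between the constructs (-0.20 ± 0.34 SE, edgeR adjusted p = 0.710), nor did it reach an unadjusted p under 0.05 there or pass with DESeq2. IFNB1, an early interferon of infected cells, had 0 counts in all libraries. Of 9 receptor and kinase genes 1 fell and 0 rose in the LmnB1 libraries (edgeR), against 9.25% and 8.58% of all tested genes. At an unadjusted p under 0.05 and with DESeq2, 2 were lower and 0 higher. The gene that fell was IFNLR1, the specific chain of the type III interferon receptor, with 5.79 ± 0.270 CPM in mCherry_3, 2.38 ± 0.976 in mCherry_4, then 1.12 ± 0.268 in LmnB1_6 and 0.946 ± 0.248 in LmnB1_16 (log2 fold change between constructs -1.98 ± 0.34 SE, edgeR adjusted p = 0.00400).

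Among transcription factors outside the members, STAT3, which also responds to interleukins, fell in the LmnB1 against the mCherry libraries by 0.48 ± 0.08 (SE) on the log2 scale (edgeR adjusted p = 0.00270), and IRF3, the factor that turns on IFNB1, rose by 0.19 ± 0.06 (SE; edgeR adjusted p = 0.0471). Of 10 tested genes of RNA sensing and signalling, TICAM1, the adaptor of the sensor TLR3, fell between the constructs (-0.30 ± 0.09 SE, edgeR adjusted p = 0.0348), where 9.25% of all tested genes fell. In LmnB1_6 against the mean of the mCherry clones 7 of these 10 were lower (24.6% of all tested genes), and in LmnB1_16 1 was higher and 0 were lower, with 17.2% and 16.5% of all tested genes (edgeR; 2 lower at an unadjusted p under 0.05 and 1 with DESeq2).

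Of 10 tested inhibitors of the pathway, 3 rose and 0 fell between the constructs (edgeR), against 8.58% and 9.25% of all tested genes. At an unadjusted p under 0.05, 4 were higher and 1 was lower, and with DESeq2 3 and 0. SOCS1, which blocks the JAK kinases, was high in 1 clone, at 1.54 ± 0.514 CPM in mCherry_3, 1.66 ± 0.387 in mCherry_4, then 10.6 ± 0.745 in LmnB1_6 and 1.79 ± 0.163 in LmnB1_16. SOCS2, of the same family, was at 4.74 ± 0.349, 2.99 ± 0.339, 19.3 ± 2.14 and 6.19 ± 0.604 CPM in the same order. PIAS2, a SUMO ligase, rose by 0.25 ± 0.07 (SE) on the log2 scale between the constructs (edgeR adjusted p = 0.0261). For SOCS1 the log2 fold change against the mean of the mCherry clones was 2.72 ± 0.18 (SE) in LmnB1_6 (edgeR adjusted p = 2.11e-09) and 0.16 ± 0.21 in LmnB1_16 (edgeR adjusted p = 0.602). The clone in which SOCS1 was high is the clone in which 17 members were lower, and a relation between them was not tested.

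The partners of ISG15 conjugation varied with the clone. UBA7, UBE2L6 and TRIM25 gave 0 calls between the constructs (edgeR; 1 lower at an unadjusted p under 0.05 and with DESeq2), and all 3 were lower in LmnB1_6 against the mean of the mCherry clones. In that contrast 24.6% of all tested genes were lower. Against mCherry_4 alone, UBE2L6 did not pass in LmnB1_6 (-0.25, edgeR adjusted p = 0.137). UBE2L6, the conjugating enzyme of ISG15, had 25.7 ± 0.481 CPM in mCherry_3, 13.3 ± 1.98 in mCherry_4, against 11.1 ± 1.71 in LmnB1_6 and 23.5 ± 1.94 in LmnB1_16. Of 31 tested interferon-stimulated genes outside the members, 5 fell and 1 (IFITM1) rose between the constructs, against 9.25% and 8.58% of all tested genes. LY6E, a surface protein that interferon induces, had 9.50 ± 1.01 CPM in mCherry_3, 4.71 ± 0.573 in mCherry_4, 0 in the LmnB1_6 libraries and 0.444 ± 0.104 in LmnB1_16. SHFL, ZNFX1 and TRIM14 fell by 0.59 ± 0.14, 0.38 ± 0.09 and 0.23 ± 0.05 (SE) on the log2 scale (edgeR adjusted p = 0.0177, 0.0186 and 0.0133). In LmnB1_6 all of them were also lower than in mCherry_4 alone. In LmnB1_16 against mCherry_4 alone TRIM14 was lower (-0.24, edgeR adjusted p = 0.0254). SHFL (-0.25, edgeR adjusted p = 0.277) and ZNFX1 (-0.15, edgeR adjusted p = 0.274) did not pass there. In LmnB1_6 against the mean of the mCherry clones 18 of the 31 were lower and 4 higher (24.6% and 24.4% of all tested genes), and in mCherry_4 against mCherry_3 13 were lower and 3 higher (17.4% and 19.9%), so the list had more lower than higher calls in both contrasts.

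Targets of interferon gamma, a cytokine with a receptor of its own, were listed apart. Of 6 tested, GBP2 and GBP4 rose between the constructs and 0 fell (edgeR), against 8.58% and 9.25% of all tested genes. At an unadjusted p under 0.05, 1 was lower, and 1 was lower with DESeq2. GBP2, a guanylate-binding protein that attacks intracellular pathogens, had 2.44 ± 0.341 CPM in mCherry_3, 3.34 ± 0.799 in mCherry_4, then 11.8 ± 2.65 in LmnB1_6 and 3.84 ± 0.788 in LmnB1_16. GBP4 was at 0 in mCherry_3 and mCherry_4, at 0.0112 ± 0.0194 CPM in LmnB1_6 and at 1.79 ± 0.232 in LmnB1_16. Against the mean of the mCherry clones, GBP2 was called in LmnB1_6 only and GBP4 in LmnB1_16 only. In LmnB1_16 GBP2 did not pass there (0.43, edgeR adjusted p = 0.101) but was higher than in mCherry_3 alone (0.66, edgeR adjusted p = 0.0281). CXCL10, a chemokine that both kinds of interferon induce, had 0 counts.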

How the data were processed

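Messenger RNA of 12 libraries was quantified by the authors. Per the file headers, the authors deposited estimated counts and TPM per gene with gene length and effective length. Per the submitters' processing notes the tools were STAR, Salmon and DESeq2 on GRCh38 (hg38), with roles, versions and strand not given in the sources used here. The deposited estimated counts are raw, and they were rounded before testing because 31.3% to 32.6% of detected genes per library were not whole. The TPM that the authors deposited served for levels between genes and for alternatives.

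Of 60708 genes, 60652 had a symbol and 58396 were in GENCODE 29, the source of gene positions. Genes were kept by edgeR's filterByExpr grouped by clone (minimum count 10, minimum total 15), which left 15388 genes with at least 99.9% of each library's counts. TMM factors ran from 0.948 to 1.06. Tests used edgeR 4.0.16 (glmQLFit, glmQLFTest) in R 4.3.3, with Benjamini-Hochberg adjustment over all genes tested and calls under 0.05. One fit set 6 LmnB1 against 6 mCherry libraries, and another had the 4 clones as groups. Each SE was obtained by dividing the log2 fold change by the root of its F statistic. Alternatives used DESeq2 1.42.0 and limma 3.58.1. Both fits were tested on simulated data. The simulated libraries had no differences between clones beyond the changes put in, so they do not check the construct fit where clones differ. Exact 95% intervals and the limit of 3 counts cover counting error only.

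The members and lists were chosen with earlier results of these data known. Every library's value is given for members called between constructs, the 4 called members with the largest change between clones of each construct, and the 3 with the highest TPM. From each pathway list up to 4 called genes with the smallest adjusted p are named, or the 2 most abundant. IFITM1, UBA7, IFNB1, CXCL10 and genes that neighbour or overlap members were chosen after their values were seen. One gene of the list of transcription factors is not reported here, and no count is given for that list. Replicate numbers do not pair libraries of different clones by the labels.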

Additional observations from a re-analysis of the deposited data

Results flagged for a closer look

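In 2 of 58 groups of 6 libraries (29 members in each construct) 1 library stood apart from the other 5, by a gap above 0.625 of the range of the group. For 6 independent draws from 1 normal distribution, chance marks about 1 group in 20. Each group here pools 2 clones, so that rate does not apply to these groups. IFIT5 had 41.0 CPM in replicate 2 of LmnB1_16, above the other LmnB1 libraries, and IFI6 had 23.3 CPM in replicate 3 of LmnB1_6.

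The LmnB1 clones differed from each other in 21 members, tested as LmnB1_16 minus LmnB1_6 with edgeR (adjusted p under 0.05), which is also the test of whether their effects against the shared mCherry libraries differ. On the log2 scale LmnB1_16 was higher for OAS1 by 9.05, a fitted value against 0 counts and so no bound, for SAMD9L by 3.02, for BST2 by 1.91, for IFI44L by 1.85, for IFIH1 by 1.32, for IFIT2 by 1.25 and for IFIT3 by 1.15. Smaller differences were 0.90 for HERC6, 0.86 for OAS3, 0.77 for USP18, 0.68 for HERC5, 0.56 for IRF9, 0.56 for DDX60, 0.52 for RIGI, 0.51 for IFI44 and 0.47 for PARP14. LmnB1_16 was lower for IRF7 at -7.50, a fitted value that rests on 2 counts in that clone, for EPSTI1 at -1.29, for SAMD9 at -0.70, for IFI6 at -0.47 and for ISG15 at -0.39.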

How the results depend on the processing

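The counts of members called in the 4 contrasts that involve single clones stayed within 1.5 times of the reported ones in all 20 alternatives run for each, at 14 to 18 for LmnB1_6 against the mean of the mCherry clones, 10 to 15 for LmnB1_16, 18 to 24 for mCherry_4 against mCherry_3 and 17 to 22 for LmnB1_16 against LmnB1_6. The count of 4 members called between constructs became 2 without a filter on low counts, 2 with limma on log2(TPM + 0.1) and 2 with limma on log2(TPM + 1). It was 1 without mCherry_3, 12 without mCherry_4 and 12 without LmnB1_16. With counts summed per clone it was 0, and with clone as a random effect 0. Leaving out 1 library at a time gave 2 to 7. None of ISG15, HERC5, USP18 and PARP9 was called without mCherry_3, so the 1 member called there is another. The 3 members whose libraries did not overlap became 1 with the deposited TPM, 7 without mCherry_3, 13 without mCherry_4, 8 without LmnB1_6 and 11 without LmnB1_16. The shares of all tested genes in these alternatives are not given here, and with a clone left out fewer libraries had to separate. The median of -0.34 became 0.0187 without mCherry_3. Signs of single genes between constructs, none of them called, turned for BST2 (2.45), IFI6 (0.23) and STAT2 (0.0187) without mCherry_3, for IRF7 (0.0546) without LmnB1_16 and for OAS2 (0.15) with clone as a random effect. Of the other values of single genes under alternatives, 284 kept direction and call, 32 lost the call and 12 gained it; the cause was not tested. With the replicate block 3 members were called between constructs, since USP18 was at an edgeR adjusted p of 0.0768. Same-numbered libraries of different clones had correlated deviations of -0.05 to 0.18 and 5 of 12 libraries correlated best with their own number, so the numbers were not read as pairs. Depth limits OAS2, OASL, BST2, MX1 and the 5 members that were not tested.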
